A study of Mus musculus with 40 samples.

Results

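Dorsal root ganglia 6 days after spared nerve injury were compared with ganglia of naive mice, using the 3 arrays labelled as 6 days and the 7 labelled as naive out of the 40 arrays of the study. Spared nerve injury is a surgical model of neuropathic pain in which the common peroneal and tibial nerves are ligated and severed while the sural nerve is spared. Both groups were adult male C57BL/6J mice aged 9 to 10 weeks, and the naive mice had no surgery, so that effects of the operation other than the nerve lesion cannot be told apart from the lesion. RNA was hybridised to Illumina bead arrays, and the whole series follows the injury from hours to days with naive mice as its baseline. Whether an array holds the RNA of a single mouse or of several is not stated in the labels, so p-values measure only the spread between these samples, which may in part be technical.

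The ganglion holds the cell bodies of sensory neurons, wrapped by satellite glia, together with Schwann cells, resident macrophages and vessels. When a peripheral axon is cut, its neuron switches on a growth and stress programme that includes transcription factors such as Atf3 and Jun, growth-cone proteins and neuropeptides, and many genes of the resting sensory neuron decline. Macrophages around the cell bodies respond to signals such as colony stimulating factor 1 that injured neurons release.

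All levels below are normalized log2 signals, on which a difference of 1 is a doubling, and a probe counted as detected above 6.85. Of 10519 genes tested, 547 (5.2%) differed between 6 days and naive at an adjusted p under 0.05 (limma, Benjamini-Hochberg), 294 higher (2.79%) and 253 lower (2.41%). The median log2 difference over all genes was -0.02. Counts of list members below are to be read against the 5.2% of all genes. Shares near it were those of axon guidance (2.94%), skeletal muscle (5.26%), myelin (5.88%) and pan-neuronal genes (5.88%). The trophic (6.25%), G protein (7.14%), calcium channel (8.33%) and inhibitory receptor (8.33%) lists also lay near it. The 2 sets of arrays did not overlap for 1078 genes (10.2%), 476 higher at 6 days (4.53%) and 602 lower (5.72%). With every array scaled to its median in place of quantile normalization, 253 genes passed, of which 174 rose and 79 fell. Leaving out arrays gave 303 without 6-day replicate 2 and 299 without 6-day replicate 3. The median signal of the 10 arrays lay between 138.0 and 244.5 intensity units, and their number limits the precision. The 6-day arrays correlated with each other at 0.990 to 0.992 across genes and the naive arrays at 0.978 to 0.995. Naive replicate 4 correlated with the 6-day arrays at 0.985 to 0.988 and with the other naive arrays at 0.978 to 0.991, and without it 604 genes passed. With neqc background correction 57 of the 171 named values lay over 1.5 times closer to 0, and these values are given below for the genes past the threshold. That correction drew on the deposited detection p-value columns, which on 37 of the 40 arrays did not follow the array's own signal.

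**Figure D1:**
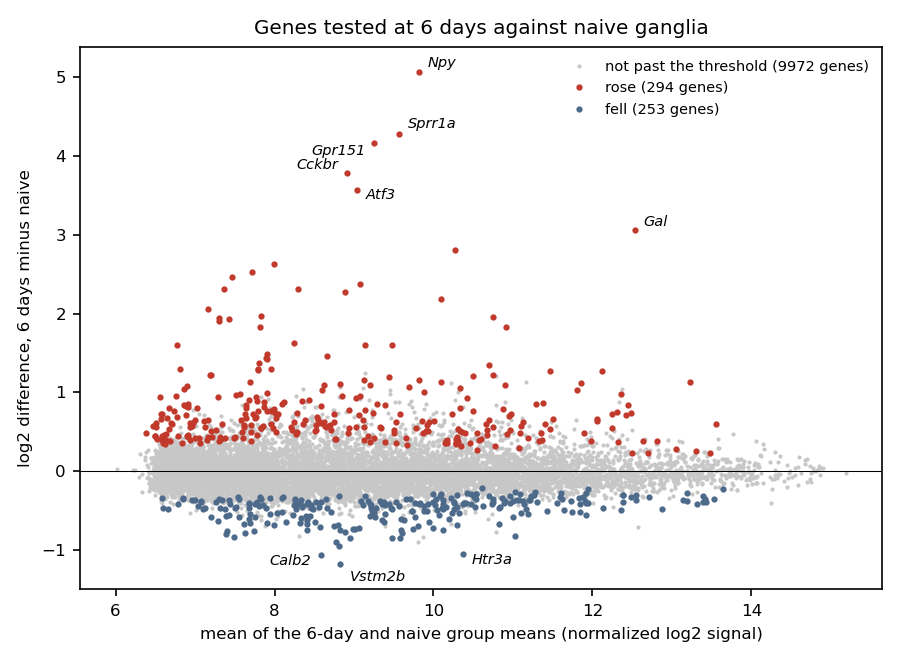
Each point is a gene, with the mean of the 6-day and naive group means on the x axis (normalized log2 signal) and the log2 difference of 6 days minus naive on the y axis; red points rose, blue points fell and grey points did not pass the threshold. The rises reach 5.07 in Npy, while no fall is larger than that of Vstm2b at -1.18.

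The largest rises at 6 days were in genes of neuropeptides, receptors and the axotomy response. Npy, the gene of neuropeptide Y, had levels of 12.22, 12.37 and 12.47 at 6 days, against 6.73 to 8.02 (median 7.17) on the naive arrays. The groups lay far apart, and 5 of the 7 naive arrays were above the detection level. The log2 difference was 5.07 ± 0.25 (SE), a 33.6-fold rise (adjusted p = 6.69e-17). Gpr151, which encodes an orphan receptor, had levels of 11.40, 11.14 and 11.47 at 6 days, against 6.90 to 7.48 (median 7.19) in naive ganglia. It rose by 4.17 ± 0.15 (adjusted p = 6.16e-20), with no overlap. Cckbr, the cholecystokinin B receptor gene, had levels of 10.79, 10.82 and 10.80 at 6 days, against 6.40 to 7.59 (median 7.19) in naive ganglia, where 5 of 7 arrays were above detection. Its rise was 3.79 ± 0.23 (13.8-fold, adjusted p = 2.08e-14), and its 6-day arrays hardly differed from each other.

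Atf3, the transcription factor of the injury response, had levels of 10.92, 10.72 and 10.83 at 6 days, against 6.89 to 7.54 (median 7.25) in naive ganglia. It rose by 3.56 ± 0.16 (11.8-fold, adjusted p = 9.45e-18), every 6-day array standing above every naive array. Sprr1a, a small proline-rich protein gene linked to axon regeneration, had levels of 11.56, 11.83 and 11.74 at 6 days, against 6.90 to 8.08 (median 7.33) on the naive arrays. It rose by 4.28 ± 0.22 (19.4-fold, adjusted p = 4.12e-16), and the groups did not overlap. Gal, the galanin gene, had levels of 14.06, 14.05 and 14.11 at 6 days, against 10.58 to 11.32 (median 11.05) in naive ganglia. The difference of 3.06 ± 0.14 (8.35-fold, adjusted p = 1.1e-17) had no overlap between groups either.

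**Figure D2:**
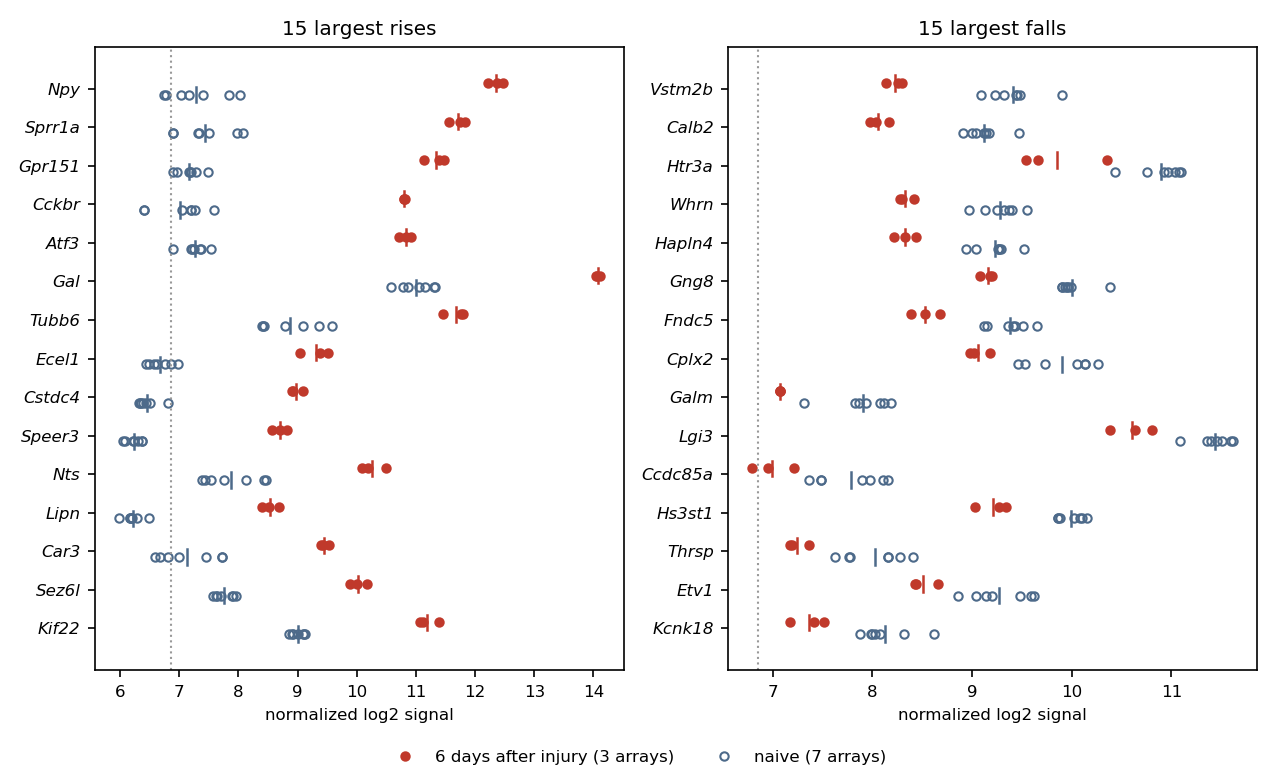
Normalized log2 signal of the 15 largest rises and the 15 largest falls among the genes past the threshold; filled red points are the 3 arrays at 6 days, open blue points the 7 naive arrays, short bars the group means, and the dotted line the detection level of 6.85. The rises separate the groups by more than the whole naive range, while the falls are smaller and, for Htr3a, the highest 6-day array at 10.35 lies just under the lowest naive array at 10.43.

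Among the other large rises, Tubb6, a beta-tubulin gene, had levels of 11.46, 11.76 and 11.79 at 6 days, against 8.39 to 9.59 (median 8.79) in naive ganglia, a rise of 2.80 ± 0.27 (6.98-fold, adjusted p = 3.15e-09). Ecel1, the gene of the damage-induced neuronal endopeptidase, had levels of 9.52, 9.04 and 9.37 at 6 days, against 6.44 to 6.98 (median 6.63) on the naive arrays, of which 2 were above detection, so that its fitted difference rests mostly on naive values under that level. It rose by 2.63 ± 0.18 (adjusted p = 9.28e-13), and both genes separated the groups completely. Nts, which encodes neurotensin, had levels of 10.10, 10.50 and 10.19 at 6 days, against 7.39 to 8.47 (median 7.76) in naive ganglia, and rose by 2.38 ± 0.33 (adjusted p = 4.86e-06). Sez6l, a neuronal membrane protein gene, rose by 2.27 ± 0.15 (adjusted p = 2.8e-13), and Kif22, a kinesin gene known from mitosis, by 2.19 ± 0.12 (adjusted p = 7.61e-16). With the mean of a gene's probes in place of the brightest, the differences were 1.55 for Nts and 1.15 for Sez6l.

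Car3, a carbonic anhydrase gene abundant in skeletal muscle and fat, had levels of 9.53, 9.43 and 9.39 at 6 days, against 6.59 to 7.73 (median 7.00) in naive ganglia, 4 of which were above detection. It rose by 2.31 ± 0.38 (4.96-fold, adjusted p = 9.41e-05). It was the only skeletal muscle gene of 19 tested to pass, and the mean level of the 19 lay between 7.15 and 8.47 at 6 days, against 7.00 to 9.12 in naive ganglia. Naive replicate 6 carried the highest muscle mean, 9.12, and its Car3 level was 7.73.

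A further 3 rises were in genes that none of the 7 naive arrays detected, so that only a lower bound can be given. These genes passed the filter on dim probes only through arrays other than the naive ones. The adjusted p of each belongs to the fitted difference, which uses naive signals under the detection level, and not to the bound. Cstdc4, a gene of the cysteine protease inhibitor family, had levels of 8.93, 8.91 and 9.10 at 6 days, against measured values of 6.32 to 6.81 (median 6.39) in naive ganglia. It was at least 4.36-fold higher (adjusted p = 9.91e-17). Speer3, of a mouse gene family known from the testis, had levels of 8.69, 8.57 and 8.82 at 6 days, against 6.05 to 6.37 (median 6.23), and was at least 3.58-fold higher than in naive ganglia (adjusted p = 4.47e-13). Lipn, a gene of the acid lipase family known from skin, had levels of 8.39, 8.51 and 8.68 at 6 days, against 5.98 to 6.49 (median 6.18), at least 3.19-fold higher than in naive ganglia (adjusted p = 1.02e-16). Both Cstdc4 and Speer3 belong to families of similar copies, which a probe may not tell apart. With neqc background correction the log2 differences of these dim genes were 1.14 for Cstdc4, 0.96 for Speer3, 0.85 for Lipn, 1.37 for Ecel1 and 1.35 for Car3, all still past the threshold.

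The promoters of the genes that rose were searched for TGANTCA, where N is any base. This motif takes in TGA(C/G)TCA, the core of the AP-1 element to which Jun and Atf3 family proteins bind. It is wider than that core, so the shares below are not of AP-1 elements alone. The motif is its own reverse complement, so that a single search covers both strands. In RefSeq promoters of GRCm38.p6, taken as 250 bases before the start, 27 of 231 genes that rose held it (11.7%), as did 13 of 205 that fell (6.34%), 525 of 8488 tested genes (6.19%) and 2217 of the 32851 promoters in the table used (6.75%). A gene counted if any of its promoters held the motif, whereas the last share is per promoter, so it is not on the same footing. The motif was chosen with the results known, and a match is a description of the letters, not a bound site. Of the 15 largest rises, the promoters of 12 were looked at singly, of which 3 held it and are shown with the motif in capitals, read 5′ to 3′ along the gene's strand. Sprr1a (chr3:92485882-92486131, minus strand) has 2 copies that begin 146 and 116 bases before the start, Nts (chr10:102490419-102490668, minus strand) has a copy 207 bases before it, and Lipn (chr19:34067108-34067357, plus strand) a copy 148 bases before it.
Sprr1a: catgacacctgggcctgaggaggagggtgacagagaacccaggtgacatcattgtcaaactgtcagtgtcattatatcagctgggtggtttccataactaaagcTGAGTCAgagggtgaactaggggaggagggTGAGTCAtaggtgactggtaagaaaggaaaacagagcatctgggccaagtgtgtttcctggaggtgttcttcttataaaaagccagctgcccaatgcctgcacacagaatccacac
Nts: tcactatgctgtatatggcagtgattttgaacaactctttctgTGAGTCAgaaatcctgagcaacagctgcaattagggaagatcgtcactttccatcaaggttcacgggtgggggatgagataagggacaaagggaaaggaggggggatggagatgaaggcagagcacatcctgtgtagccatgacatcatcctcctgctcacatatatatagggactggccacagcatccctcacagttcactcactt
Lipn: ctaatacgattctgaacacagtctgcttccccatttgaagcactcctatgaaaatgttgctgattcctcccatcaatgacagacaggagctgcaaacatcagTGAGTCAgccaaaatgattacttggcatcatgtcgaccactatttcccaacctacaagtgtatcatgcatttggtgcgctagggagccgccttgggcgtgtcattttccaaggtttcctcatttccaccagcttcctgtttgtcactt

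Of 18 transcription factor genes of the injury response that were tested, 5 rose and none fell, with a median log2 difference of 0.15. Besides Atf3, Jun had levels of 10.68, 10.73 and 10.78 at 6 days, against 9.83 to 10.03 (median 9.93) in naive ganglia, and rose by 0.80 ± 0.16 (1.74-fold, adjusted p = 0.00151) with no overlap. Csrnp1, a nuclear protein gene, rose by 0.65 ± 0.13 (adjusted p = 0.000885), Smad1, a transducer of bone morphogenetic protein signals, by 0.93 ± 0.25 (adjusted p = 0.0222), and Klf6, a zinc-finger factor gene, by 0.53 ± 0.16 (adjusted p = 0.0383). Egr1, an immediate-early gene, had a difference of -0.30 ± 0.22 (adjusted p = 0.48), and Id2, a gene of a helix-loop-helix inhibitor, of 0.37 ± 0.27 (adjusted p = 0.487). The call of Smad1 ended without 6-day replicate 1, 2 or 3 (adjusted p up to 0.0921) and that of Klf6 on leaving out any 1 of 6 arrays (at most 0.296). With median scaling the calls of Jun (adjusted p = 0.0587) and Klf6 (0.326) ended, and Klf6 also lost its call with no filter on dim probes (0.052) and with the running number of the labels as a block (0.0668). With neqc the difference of Csrnp1 was 0.43.

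Axon growth and stress genes gave 14 rises and no fall among 28 tested (median 0.43). Gap43, the growth-associated protein of growth cones, had levels of 12.84, 12.79 and 12.66 at 6 days, against 10.96 to 11.98 (median 11.41) in naive ganglia, and rose by 1.28 ± 0.29 (2.42-fold, adjusted p = 0.00497). Its groups did not overlap. Flrt3, an adhesion protein gene, rose by 1.96 ± 0.12 (3.88-fold, adjusted p = 7.82e-14), and Stmn4, a tubulin-binding stathmin, by 1.44 ± 0.26 (adjusted p = 0.00028). Of the stress genes, Gadd45a rose by 1.83 ± 0.18 (3.56-fold, adjusted p = 5.85e-09), Gadd45g by 0.85 ± 0.10 (adjusted p = 1.98e-07) and Cdkn1a, the gene of the cell cycle inhibitor p21, by 1.12 ± 0.12 (2.17-fold, adjusted p = 2.92e-08). Lgals1, a lectin gene, rose by 0.74 ± 0.09 (adjusted p = 2.35e-07), and Timp1, a metalloproteinase inhibitor gene, by 0.56 ± 0.15 (adjusted p = 0.0195). Plaur, the urokinase receptor gene, rose by 0.39 ± 0.11 (adjusted p = 0.0372). Hspb1, a small heat shock protein gene, had a difference of 0.44 ± 0.16 (adjusted p = 0.123) and Socs3, a brake on cytokine signalling, of 0.42 ± 0.15 (adjusted p = 0.107). The call of Timp1 ended without 6-day replicate 2 or 3 (adjusted p up to 0.175) and with neqc (0.115) or median scaling (0.107), and that of Plaur on leaving out any 1 of 6 arrays (at most 0.251) and with neqc (0.0707). Plaur also lost its call with median scaling (0.142), no filter (0.0661), only the arrays compared (0.12) and the running number as a block (0.0591). With neqc the differences were 0.70 for Stmn4, 0.33 for Timp1 and 0.13 for Plaur.

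Of 16 unfolded protein response genes, 3 rose and none fell (median -0.02). They were Chac1, a glutathione-degrading enzyme gene, at 1.13 ± 0.13 (2.20-fold, adjusted p = 9.88e-08), Atf4, the transcription factor of the integrated stress response, at 0.42 ± 0.07 (adjusted p = 0.000257), and Asns, the asparagine synthetase gene, at 0.39 ± 0.11 (adjusted p = 0.0269). The chaperone gene Hspa5 had a difference of 0.35 ± 0.30 (adjusted p = 0.575). The call of Asns ended on leaving out any 1 of 4 arrays (adjusted p at most 0.168), and with median scaling the calls of Atf4 (0.327) and Asns (0.394) ended. Cytoskeleton and transport genes gave 3 rises and no fall among 32 (median 0.05), namely Tubb6, Kif22 and Stmn4. Tubb2a, another tubulin gene, ranged from 7.11 to 10.25 over the naive arrays and had a difference of 1.25 ± 0.69 (adjusted p = 0.345), and Stmn1, a stathmin, had 1.11 ± 0.50 (adjusted p = 0.219).

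Neuropeptides of the injured neuron and their receptors had 7 rises and 1 fall among 11 tested genes, a median of 1.27. Besides Npy, Gpr151, Cckbr, Gal and Nts, Vgf, the precursor of several secreted peptides, rose by 1.27 ± 0.16 (2.42-fold, adjusted p = 7.76e-07), with levels of 11.86, 12.25 and 12.21 at 6 days against 10.27 to 11.13 in naive ganglia. Adcyap1, the gene of the peptide PACAP, rose by 0.87 ± 0.12 (1.83-fold, adjusted p = 3.12e-06). Gpr83, a receptor gene, fell by 0.56 (SE 0.13, adjusted p = 0.00516), a call that ended without 6-day replicate 3 (adjusted p = 0.108), and had -0.32 with neqc. Npy2r, a receptor of neuropeptide Y, had a difference of 0.56 ± 0.20 (adjusted p = 0.107). Tac1, the substance P gene, had levels of 13.16, 13.14 and 13.07 at 6 days, inside the naive range of 12.94 to 13.39 (median 13.26), with a difference of -0.09 ± 0.12 (adjusted p = 0.737).

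Among 16 trophic factor genes and receptors, Csf1 alone passed (median 0.10). Csf1, the macrophage growth factor gene, had levels of 8.38, 8.86 and 8.69 at 6 days, against 6.91 to 7.46 (median 7.18) in naive ganglia, and rose by 1.48 ± 0.16 (2.80-fold, adjusted p = 2.24e-08). The groups did not overlap, and with neqc the difference was 0.74. Bdnf, the gene of brain-derived neurotrophic factor, had levels of 9.91, 10.29 and 10.30 at 6 days within the naive range of 9.75 to 10.31 (median 9.90), a difference of 0.17 ± 0.13 (adjusted p = 0.52). The receptor genes Gfra3 (0.36 ± 0.17, adjusted p = 0.25) and Ntrk3 (-0.31 ± 0.13, adjusted p = 0.205) did not pass.

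**Figure D3:**
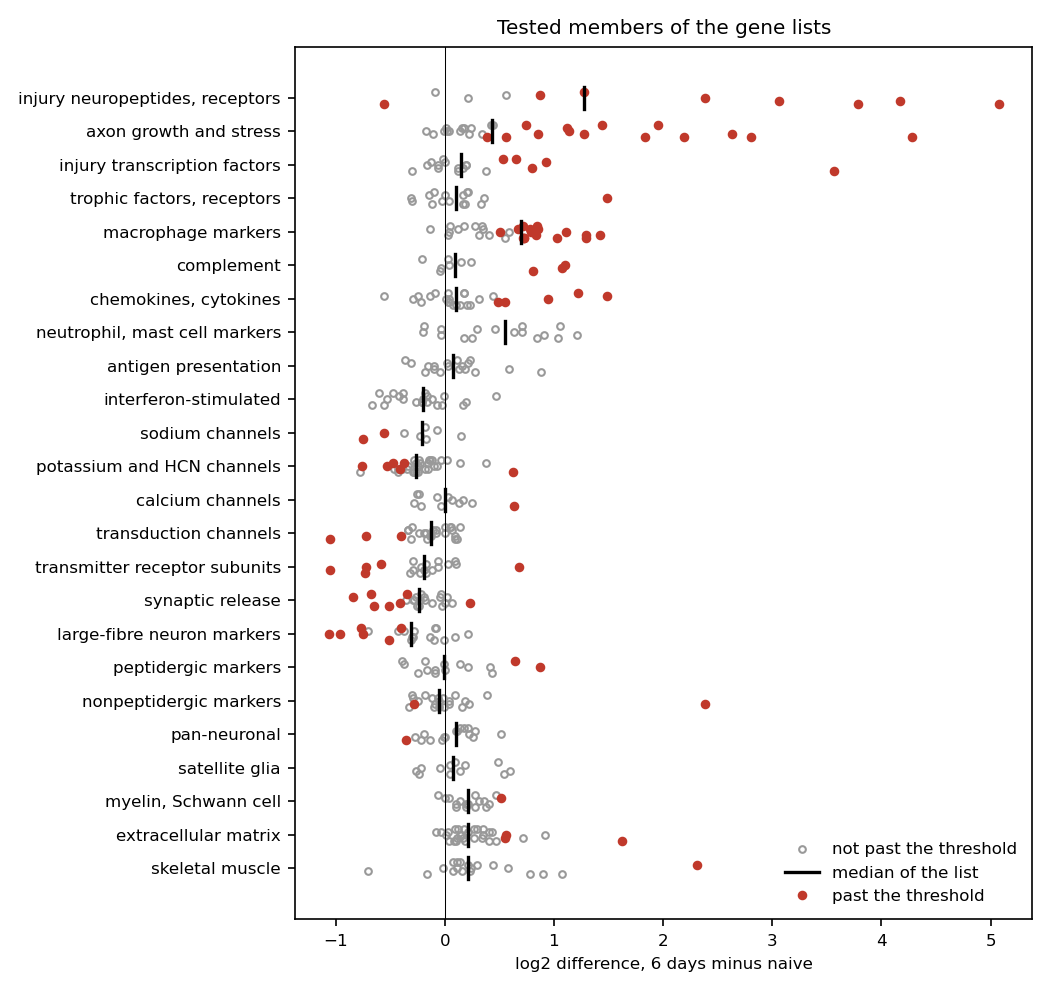
Log2 difference of 6 days minus naive (x axis) for each tested member of 24 gene lists (rows); filled red points passed the threshold, open grey points did not, and black bars are list medians. The peptide list has the highest median at 1.27 and the macrophage list one of 0.69, while the sodium channel, potassium channel, transduction and release lists have medians below 0.

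The falls at 6 days were smaller than the rises. Vstm2b, which encodes an immunoglobulin-domain membrane protein, had levels of 8.26, 8.30 and 8.13 at 6 days, against 9.09 to 9.90 (median 9.44) in naive ganglia, and fell by 1.18 (SE 0.16, 0.440 of the naive level, adjusted p = 2.42e-06). Calb2, the calretinin gene, had levels of 7.98, 8.17 and 8.04 at 6 days, against 8.91 to 9.47 (median 9.12), and fell by 1.06 relative to naive ganglia (SE 0.14, adjusted p = 1.9e-06). Neither overlapped between groups. Whrn, the gene of the scaffold protein whirlin, had levels of 8.28, 8.29 and 8.41 at 6 days, against 8.97 to 9.55 (median 9.32) in naive ganglia, and fell by 0.96 (SE 0.12, adjusted p = 1.54e-06). Hapln4, a link protein of perineuronal nets, fell by 0.90 (SE 0.19, adjusted p = 0.00266), and Fndc5, the irisin precursor gene, by 0.85 (SE 0.15, adjusted p = 0.000191).

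Further falls were called in Galm, a galactose mutarotase gene, at -0.83 ± 0.17 (adjusted p = 0.00117), and in Lgi3, a secreted neuronal protein gene, at -0.82 ± 0.12 (adjusted p = 5.88e-06). Hs3st1, a heparan sulfate sulfotransferase gene, fell by 0.78 (SE 0.10, adjusted p = 2.37e-06). Ccdc85a, a coiled-coil protein gene, had a difference of -0.79 ± 0.18 (adjusted p = 0.00443), with 2 of 3 arrays at 6 days above the detection level, and Thrsp, a regulator of fat synthesis, had -0.78 ± 0.22 (adjusted p = 0.0315). The call of Ccdc85a ended without 6-day replicate 3 (adjusted p = 0.0682) and that of Thrsp on leaving out any 1 of 7 arrays (at most 0.144) and with median scaling (0.103). With neqc the differences were -0.34 for Galm, -0.30 for Ccdc85a and -0.35 for Thrsp.

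Large-fibre neuron markers, genes of touch and position-sensing neurons, gave 6 falls and no rise among 20 tested (median -0.31). They were Calb2, Whrn, Etv1, Scn1a, Vsnl1 and Asic1. Etv1, a transcription factor of proprioceptive neurons, had levels of 8.43, 8.43 and 8.65 at 6 days, against 8.86 to 9.62 in naive ganglia, a fall of 0.77 (SE 0.18, adjusted p = 0.00665). Vsnl1, a calcium sensor gene, fell by 0.51 (SE 0.08, adjusted p = 8.01e-05). Pvalb, the parvalbumin gene, had levels of 12.22, 12.12 and 12.31 at 6 days, below the naive range of 12.62 to 13.19, but its difference of -0.71 ± 0.24 did not pass (adjusted p = 0.0807). Nefh, the heavy neurofilament gene, had levels of 12.94, 13.06 and 12.96 at 6 days, inside the naive range of 12.82 to 13.31 (median 12.97), a difference of -0.01 ± 0.13 (adjusted p = 0.985). In RNA of whole ganglia, fewer cells of a type and less RNA per cell cannot be told apart. The call of Etv1 ended without 6-day replicate 2 (adjusted p = 0.0548) and with median scaling (0.101).

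Both nociceptor lists had medians near 0, but not all of their members are particular to nociceptors. The peptidergic list shares Nefh with the large-fibre markers and Ngfr with the repair Schwann cell genes, and its median was the value of Nefh. Adcyap1 and Nts are also counted among the neuropeptides above. The medians therefore do not describe nociceptors alone. Of 15 peptidergic markers, Adcyap1 and Avpr1a, a vasopressin receptor gene, rose (median -0.01), Avpr1a by 0.64 ± 0.13 (adjusted p = 0.00182), with 4 of 7 naive arrays above the detection level. Calcb, a calcitonin gene-related peptide gene, had a difference of 0.43 ± 0.34 (adjusted p = 0.527). Of 22 nonpeptidergic markers, Nts rose and Tmem45b, a membrane protein gene, fell by 0.28 (SE 0.08, adjusted p = 0.0251; list median -0.05). Mrgprd, a receptor of nonpeptidergic neurons, had levels of 9.51, 9.50 and 8.74 at 6 days, against 9.19 to 10.04 (median 9.47) in naive ganglia, a difference of -0.32 ± 0.19 (adjusted p = 0.376). The call of Avpr1a ended without 6-day replicate 3 (adjusted p = 0.0825) and that of Tmem45b without naive replicate 6, 6-day replicate 2 or 6-day replicate 3 (up to 0.181). Tmem45b also lost its call with median scaling (adjusted p = 0.0689) and with only the arrays compared (0.0532), and with neqc the difference of Avpr1a was 0.21.

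Of 17 pan-neuronal genes, Rbfox3, the gene of the nuclear protein NeuN, fell by 0.36 (SE 0.07, 0.782 of the naive level, adjusted p = 0.0016) and none rose (median 0.10). Its levels were 13.30, 13.26 and 13.17 at 6 days, below the naive range of 13.48 to 13.70. The mean over the list lay between 11.64 and 11.86 at 6 days, against 11.64 to 11.83 in naive ganglia.

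Ion channel genes mostly fell where they passed. The 8 sodium channel genes tested held 2 falls and no rise (median -0.20). Scn1a, the gene of a channel of large sensory neurons, had levels of 9.69, 9.86 and 9.69 at 6 days, against 10.11 to 10.93 in naive ganglia, a fall of 0.75 (SE 0.15, adjusted p = 0.00142). Scn4b, an auxiliary subunit gene, fell by 0.56 (SE 0.11, adjusted p = 0.000609). Scn10a, the gene of a nociceptor channel, had levels of 11.32, 11.65 and 11.50 at 6 days within the naive range of 11.25 to 11.92 (median 11.60), a difference of -0.08 ± 0.13 (adjusted p = 0.811). Scn11a, of another nociceptor channel, had levels of 13.87, 14.00 and 13.72 at 6 days, against 13.98 to 14.11 (median 14.07) in naive ganglia, a difference of -0.18 ± 0.07 (adjusted p = 0.162), and Scn8a had -0.37 ± 0.15 (adjusted p = 0.158). With median scaling the call of Scn1a ended (adjusted p = 0.0545).

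Of 35 potassium and HCN channel genes, 5 fell and 1 rose (median -0.26). Kcnk18, the gene of the background channel TRESK, had levels of 7.41, 7.52 and 7.17 at 6 days, against 7.88 to 8.61 in naive ganglia, and fell by 0.76 (SE 0.15, 0.590 of the naive level, adjusted p = 0.000886). Kcnk1, another background channel gene, fell by 0.53 (SE 0.10, adjusted p = 0.001), Kcng4, a modifier subunit gene, by 0.47 (SE 0.10, adjusted p = 0.00215), Kcnc4, a fast delayed rectifier gene, by 0.41 (SE 0.12, adjusted p = 0.0281), and Kcnip3, a channel-interacting calcium sensor gene, by 0.37 (SE 0.08, adjusted p = 0.00214). Kcnmb4, an auxiliary subunit gene of calcium-activated channels, rose by 0.62 ± 0.15 (adjusted p = 0.00989).

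Other potassium channel genes with a part in neuropathic pain models did not pass. Kcna2 had levels of 9.73, 9.72 and 9.38 at 6 days, against 9.78 to 10.59 (median 10.03) in naive ganglia, a difference of -0.47 ± 0.16 (adjusted p = 0.0802) without overlap. Kcna1 had the lowest value of the list, -0.77 ± 0.32 (adjusted p = 0.18), with 6-day replicate 2 at 9.72 and replicates 1 and 3 at 10.72 and 10.74, and without replicate 2 it was -0.44. Kcns1 had levels of 7.96, 8.05 and 7.72 at 6 days, against 7.62 to 8.64 (median 8.17), a difference of -0.26 ± 0.14 from naive ganglia (adjusted p = 0.32). Of the calls, that of Kcng4 ended without 6-day replicate 2 (adjusted p = 0.0501), that of Kcnmb4 without 6-day replicate 2 or 3 (up to 0.0858) and that of Kcnc4 without naive replicate 1, 6-day replicate 2 or 6-day replicate 3 (up to 0.187). With median scaling Kcnc4 (0.105), Kcnip3 (0.0558) and Kcnmb4 (0.0587) lost their calls, Kcnc4 did so with the mean of its probes (0.0677) and with the running number as a block (0.0523), and with neqc the differences of Kcnk18 and Kcng4 were -0.36 and -0.19.

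Of 12 calcium channel genes, Cacna2d1 rose and none fell (median -0.00). This auxiliary subunit, a binding site of gabapentin, had levels of 12.44, 12.62 and 12.09 at 6 days, against 11.26 to 12.06 (median 11.83) in naive ganglia, a rise of 0.63 ± 0.17 (1.55-fold, adjusted p = 0.0207). The lowest 6-day array lay just above the highest naive array, and the call ended without 6-day replicate 1 or 2 (adjusted p up to 0.208), with median scaling (0.15) and with the running number of the labels as a block (0.056). The related Cacna2d3 had a difference of -0.28 ± 0.12 (adjusted p = 0.203).

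Of 25 transduction channel genes, 3 fell and none rose (median -0.12). Htr3a, the channel-forming subunit of the serotonin type 3 receptor, had levels of 10.35, 9.54 and 9.66 at 6 days, against 10.43 to 11.10 (median 10.96) in naive ganglia, and fell by 1.05 (SE 0.21, 0.484 of the naive level, adjusted p = 0.00136). Its partner subunit Htr3b fell by 0.72 (SE 0.14, adjusted p = 0.000763), with levels of 9.94, 9.33 and 9.63 at 6 days, against 10.02 to 10.49. In both genes 6-day replicate 1 was the highest of the 3 and lay just under the lowest naive array. Asic1, an acid-sensing channel gene, fell by 0.41 (SE 0.09, adjusted p = 0.0055), a call that ended without 6-day replicate 1 (adjusted p = 0.0614) and with median scaling (0.0673).

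The capsaicin receptor gene Trpv1 had levels of 9.49, 9.22 and 9.39 at 6 days, against 9.17 to 10.02 (median 9.59) in naive ganglia, a difference of -0.17 ± 0.21 (adjusted p = 0.716). P2rx3, an ATP receptor of nociceptors, had levels of 10.30, 10.16 and 10.05, against 9.81 to 10.41 (median 10.02), a difference of 0.09 ± 0.14 from naive ganglia (adjusted p = 0.782). In both genes every 6-day array lay inside the naive range. The acid-sensing channel gene Asic3 (-0.33 ± 0.14, adjusted p = 0.175) and the ATP receptor gene P2rx6 (-0.34 ± 0.11, adjusted p = 0.0539) lay below the naive range on all 3 arrays without passing.

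Ligand-gated receptor subunits, a list that shares Htr3a and Htr3b with the transduction channels, gave 4 falls and 1 rise among 19 tested (median -0.19). The nicotinic subunit genes Chrna6 and Chrnb3 fell by 0.73 (SE 0.15, adjusted p = 0.00136) and 0.58 (SE 0.12, adjusted p = 0.00225), Chrna6 with overlap between groups. Gabrg1, a GABA receptor subunit gene, rose by 0.68 ± 0.13 (adjusted p = 0.000532), with levels of 8.15, 7.77 and 8.03 at 6 days, against 7.02 to 7.55 in naive ganglia. Of 12 inhibitory receptor genes, Htr1a, a serotonin receptor gene, fell by 0.39 (SE 0.10, adjusted p = 0.0131; list median -0.20), and Gabbr1, a GABA type B receptor gene, had a difference of -0.53 ± 0.29 (adjusted p = 0.332). The call of Htr1a ended without 6-day replicate 2 or 3 (adjusted p up to 0.104), with median scaling (0.0654) and with only the arrays compared (0.0748). With neqc the differences were -0.19 for Chrnb3, 0.30 for Gabrg1 and -0.14 for Htr1a.

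Genes of synaptic vesicle release gave 6 falls and 1 rise among 24 tested (median -0.23). Cplx2, a complexin that clamps vesicle fusion, had levels of 9.18, 8.98 and 9.02 at 6 days, against 9.46 to 10.27 in naive ganglia, a fall of 0.84 (SE 0.19, 0.557 of the naive level, adjusted p = 0.00387). Vamp1, a vesicle SNARE gene, fell by 0.68 (SE 0.12, adjusted p = 0.000391), Rph3a, a Rab effector gene, by 0.64 (SE 0.13, adjusted p = 0.00136) and Syn2, a synapsin gene, by 0.51 (SE 0.14, adjusted p = 0.0228). The active zone genes Rims1 (-0.41 ± 0.13, adjusted p = 0.0496) and Unc13c (-0.35 ± 0.09, adjusted p = 0.0206) fell as well, and Syt4, a synaptotagmin gene, rose by 0.23 ± 0.06 (adjusted p = 0.0105). Rims2 had a difference of -0.36 ± 0.14 (adjusted p = 0.134).

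The smaller of these release calls depended on single arrays. That of Rims1 ended on leaving out any 1 of 8 arrays (adjusted p at most 0.415), that of Syn2 without 6-day replicate 2 or 3 (up to 0.236), and those of Unc13c and Syt4 without 6-day replicate 2 (0.26 and 0.192). With median scaling Syn2 (0.142), Rims1 (0.259), Unc13c (0.252) and Syt4 (0.687) lost their calls, and with the mean of its probes Vamp1 did at -0.32 (0.0664). With only the arrays compared Rims1 (0.0751), Unc13c (0.0705) and Syt4 (0.0745) did, and Rims1 also with neqc (0.0532), no background correction (0.0525), the authors' values (0.0527), the running number as a block (0.0968) and the muscle covariate (0.0504). With neqc the differences were -0.19 for Rims1 and -0.18 for Unc13c. Of 28 G protein and regulator genes, Gng8 fell and Gng3 rose, both gamma subunits (7.14%, near the 5.2% of all genes, median -0.02). Gng8 had levels of 9.20, 9.08 and 9.18 at 6 days, against 9.90 to 10.38 in naive ganglia, a difference of -0.85 ± 0.17 (adjusted p = 0.000888), and Gng3 had 0.37 ± 0.10 (adjusted p = 0.0193). Another gamma subunit, Gng5, had 0.58 ± 0.33 (adjusted p = 0.355). The call of Gng3 ended without 6-day replicate 2 or 3 (up to 0.268) and with median scaling (0.349).

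Macrophage markers rose together in number: 17 of 30 tested genes passed, all higher (56.7%, median 0.69). Adgre1, the gene of the macrophage surface receptor Emr1, rose by 1.42 ± 0.25 (2.68-fold, adjusted p = 0.000204), and Ms4a7, a membrane protein gene of macrophages, by 1.29 ± 0.16 (2.45-fold, adjusted p = 6.01e-07). Mrc1, the mannose receptor gene, rose by 1.11 ± 0.19 (2.15-fold, adjusted p = 0.000121), Lgals3, a lectin gene that some sensory neurons also express, by 1.03 ± 0.10 (2.04-fold, adjusted p = 1.12e-08) and Cx3cr1, the fractalkine receptor gene, by 0.79 ± 0.20 (adjusted p = 0.0133). Aif1, which encodes the calcium-binding protein Iba1, had levels of 8.20, 7.93 and 7.83 at 6 days, against 7.09 to 7.45 (median 7.23) in naive ganglia, and rose by 0.72 ± 0.12 (1.65-fold, adjusted p = 5.84e-05) with no overlap. Trem2, a lipid receptor gene, had levels of 7.24, 7.19 and 7.40 at 6 days, at least 1.34-fold above naive ganglia, where no array detected it. The adjusted p of its fitted difference, not of this bound, was 3.76e-05. Trem2 passed the filter on dim probes only through arrays other than the naive ones. The platelet factor gene Pf4, also made by macrophages, rose by 1.29 ± 0.34 (adjusted p = 0.0193), and Ctss, a cathepsin gene, had a difference of 0.59 ± 0.25 (adjusted p = 0.183).

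The mean over the 30 macrophage markers was 9.08 to 9.14 at 6 days, against 8.42 to 8.61 in naive ganglia. The calls of Cx3cr1 without 6-day replicate 1 or 2 (adjusted p up to 0.139) and of Pf4 without 6-day replicate 2 or 3 (up to 0.129) ended. With neqc the differences were 0.71 for Adgre1, 0.66 for Ms4a7, 0.61 for Pf4, 0.31 for Aif1, 0.20 for Trem2 and 0.42 for Cx3cr1, and with the mean of its probes Adgre1 had 0.84.

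Of 10 complement genes, the 3 subunits of C1q, the recognition molecule of the classical pathway, rose and none fell (median 0.10). C1qa had levels of 8.33, 8.20 and 8.29 at 6 days, against 7.28 to 7.69 (median 7.41) in naive ganglia, a rise of 0.81 ± 0.17 (1.75-fold, adjusted p = 0.00189). C1qb had levels of 10.32, 10.15 and 10.22 at 6 days, against 8.54 to 9.36 (median 9.21), a rise of 1.07 ± 0.17 over naive ganglia (2.11-fold, adjusted p = 5.4e-05), and C1qc rose by 1.10 ± 0.17 (2.14-fold, adjusted p = 4.79e-05). The 6-day arrays of all 3 lay above every naive array. Clu, a complement regulator and chaperone gene, had a difference of -0.21 ± 0.13 (adjusted p = 0.413). With neqc the difference of C1qa was 0.40.

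Of 25 chemokine and cytokine genes, 5 rose and none fell (median 0.10). Besides Csf1 they were the monocyte chemokine genes Ccl8 at 1.22 ± 0.19 (adjusted p = 2.74e-05) and Ccl12 at 0.94 ± 0.24 (adjusted p = 0.0137), the transforming growth factor gene Tgfb1 at 0.56 ± 0.13 (adjusted p = 0.00659) and the scavenger chemokine gene Cxcl16 at 0.49 ± 0.13 (adjusted p = 0.0154). Ccl8 was above the detection level on 1 of 7 naive arrays and on all 3 at 6 days, where its levels were 7.50, 8.09 and 7.84, so that its fitted difference rests mostly on naive values under that level. The calls of Ccl12 and Cxcl16 ended without 6-day replicate 2 or 3 (adjusted p up to 0.133 and 0.167) and that of Tgfb1 without 6-day replicate 3 (0.149). With median scaling Tgfb1 (0.0549) and Cxcl16 (0.138) lost their calls. With neqc the differences were 0.39 for Ccl8, 0.43 for Ccl12, 0.24 for Tgfb1 and 0.26 for Cxcl16.

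No member passed among 18 antigen presentation genes (median 0.07), 22 interferon-stimulated genes (median -0.20) or 16 neutrophil and mast cell markers (median 0.55). H2-Aa, a class II chain gene, had levels of 9.97, 10.08 and 9.97 at 6 days, above the naive range of 8.45 to 9.76, with a difference of 0.88 ± 0.39 (adjusted p = 0.214). The interferon-induced genes Gbp2 (-0.67 ± 0.26, adjusted p = 0.147) and Cxcl10 (-0.55 ± 0.23, adjusted p = 0.184) lay on the lower side. The neutrophil genes S100a8 (1.04 ± 0.43, adjusted p = 0.179) and S100a9 (1.21 ± 0.46, adjusted p = 0.137) were high on naive replicate 4 as well, at 12.94 and 11.52. The mean over neutrophil and mast cell markers was 8.32 to 8.59 at 6 days, against 7.72 to 8.34 in naive ganglia. The mean over 4 lymphocyte markers, 6.79 to 6.97 at 6 days and 6.85 to 6.96 in naive ganglia, stayed near the detection level, and the T cell gene Cd3e had a difference of 0.11 ± 0.11 (adjusted p = 0.631). The part of other cell types in the rises of macrophage and chemokine genes was not tested.

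**Figure D4:**
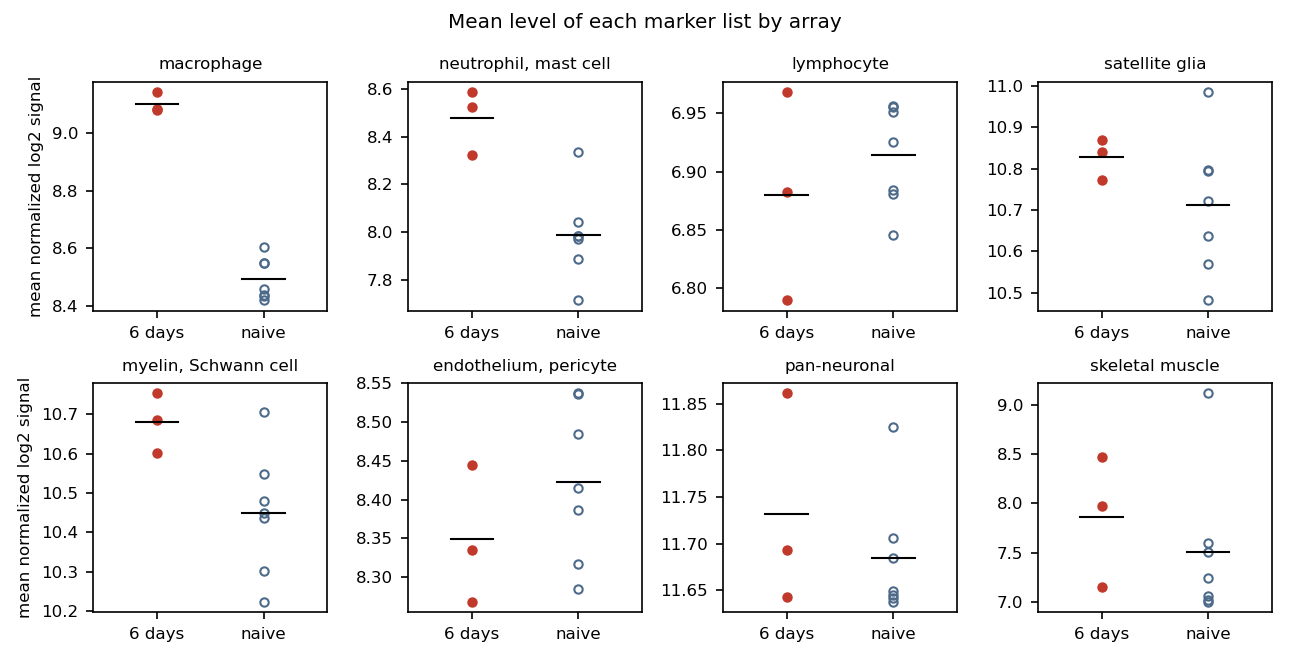
Mean normalized log2 signal of the tested members of 8 marker lists on each array, with the 3 arrays at 6 days on the left, the 7 naive arrays on the right and bars for the group means. Of these 8 lists only the macrophage list separates the groups (9.08 to 9.14 at 6 days, 8.42 to 8.61 naive), and the muscle list is highest on naive replicate 6 at 9.12. Lists not drawn here separate them too, among them the large-fibre list (9.53 to 9.56 at 6 days, 9.84 to 9.96 naive). The repair Schwann cell list does so in the other direction (9.36 to 9.42 at 6 days, 9.11 to 9.34 naive).

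None of 12 satellite glia markers passed (median 0.07). Fabp7, a fatty acid binding protein of satellite glia, had levels of 8.85, 8.22 and 8.49 at 6 days inside a naive range of 6.74 to 9.54 (median 7.95), a difference of 0.54 ± 0.45 (adjusted p = 0.561), and Glul, the glutamine synthetase gene, had 0.60 ± 0.36 (adjusted p = 0.391). Of 17 myelin and Schwann cell genes, Gldn, the node protein gliomedin, rose by 0.52 ± 0.14 (adjusted p = 0.0279; median 0.22), and Pllp, a myelin membrane protein gene, had 0.47 ± 0.16 (adjusted p = 0.0998). Of 10 repair Schwann cell genes, Jun and Gap43, which injured neurons also express, rose, and Shh, the sonic hedgehog gene, fell by 0.69 (SE 0.17, adjusted p = 0.0133; median 0.12). The call of Gldn ended on leaving out any 1 of 5 arrays (adjusted p at most 0.136) and that of Shh without 6-day replicate 1 or 3 (up to 0.109), and with median scaling Gldn (0.254) and Shh (0.0992) lost their calls, as did Gldn with only the arrays compared (0.0577) and with the running number as a block (0.05).

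Of 17 proliferation genes, Kif22 and Prc1, a spindle protein gene, rose and none fell (median 0.12), Prc1 3.03-fold (adjusted p = 7.21e-12), with levels of 9.91, 9.96 and 9.96 at 6 days, against 8.15 to 8.52 in naive ganglia. Of 31 extracellular matrix genes, Mmp16, a membrane-type metalloproteinase gene, rose by 1.63 ± 0.15 (3.09-fold, adjusted p = 2.17e-09), beside Timp1 and Ogn, a small proteoglycan gene, at 0.55 ± 0.15 (adjusted p = 0.0224; median 0.22). Col3a1, a collagen gene, had 0.92 ± 0.36 (adjusted p = 0.146). Of 18 cholesterol synthesis genes, Hsd17b7 rose by 0.75 ± 0.08 (adjusted p = 1.43e-08) and Ebp by 0.27 ± 0.08 (adjusted p = 0.0398), both of late steps of the pathway, and the earlier enzyme gene Idi1 had 0.58 ± 0.41 (adjusted p = 0.471; median 0.12). Of 34 axon guidance genes, Sema7a, a semaphorin gene, fell by 0.56 (SE 0.12, adjusted p = 0.00277; median 0.03).

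Calls among these also moved with single arrays or scaling. That of Timp1 ended without 6-day replicate 2 or 3 (adjusted p up to 0.175), that of Ogn without 6-day replicate 1, 2 or 3 (up to 0.12) and that of Ebp on leaving out any 1 of 6 arrays (at most 0.238). With median scaling Ogn (0.231), Ebp (0.569) and Sema7a (0.116) lost their calls, as did Timp1 (0.107), which did so with neqc as well (0.115). Ebp lost its call with no filter (0.0824) and with only the arrays compared (0.159), and Ogn with the mean of its probes (0.139). With neqc Mmp16 had 0.95.

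Of 14 glucocorticoid-responsive genes, Cdkn1a rose and Angptl4, a lipase inhibitor gene, fell by 0.69 (SE 0.15, adjusted p = 0.00376; median -0.12), and Pdk4, a pyruvate dehydrogenase kinase gene, had -0.51 ± 0.24 (adjusted p = 0.24). The call of Angptl4 ended without 6-day replicate 2 (adjusted p = 0.0501) and with median scaling (0.0913). None passed among 16 endothelial and pericyte genes (median -0.07), 13 clock genes (median 0.15), 40 oxidative phosphorylation genes (median -0.04), 4 erythrocyte genes (median -0.21) or 8 spinal and oligodendrocyte genes (median 0.11). Dbp, a clock output gene, had 0.57 ± 0.24 (adjusted p = 0.18), and Atp5a1, an ATP synthase subunit gene, 0.90 ± 0.51 (adjusted p = 0.359). Of 8 adipocyte genes, Car3 rose and Thrsp fell. Muscle genes other than Car3 varied with the array: Acta1, muscle actin, had levels of 9.53, 7.45 and 10.39 at 6 days, against 7.05 to 11.29 (median 7.95) in naive ganglia, a difference of 0.78 ± 1.16 (adjusted p = 0.766), and Atp2a1, a muscle calcium pump gene, had 1.07 ± 1.08 (adjusted p = 0.637). Myl1, a muscle myosin light chain gene, had 0.90 ± 1.28 (adjusted p = 0.755).

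Against 1 day after injury, 98 genes differed at 6 days (0.932% of those tested), 70 higher (0.665%) and 28 lower (0.266%), and 757 (7.2%) had an unadjusted p under 0.05. Npy stood at 12.35 ± 0.13 at 6 days and 8.89 ± 0.55 at 1 day (SD, n = 3 each), a rise of 3.46 ± 0.29 (SE, adjusted p = 5e-10). Sprr1a had 11.71 ± 0.14 at 6 days and 8.48 ± 0.27 at 1 day, a rise of 3.23 ± 0.26 (adjusted p = 3.75e-10). Cckbr, Ecel1 and Nts rose over the same interval by 2.29 ± 0.27 (adjusted p = 6.56e-07), 2.27 ± 0.22 (adjusted p = 1.15e-08) and 2.24 ± 0.39 (adjusted p = 0.00068), and Gal by 1.81 ± 0.16 (adjusted p = 2.9e-09). For Ecel1 the difference was 1.29 with neqc. Atf3 had 10.82 ± 0.10 at 6 days and 10.96 ± 0.23 at 1 day, a difference of -0.14 ± 0.19 (adjusted p = 0.989). Among the lists, 9 of 30 macrophage markers and 3 of 10 complement genes were higher at 6 days than at 1 day and none lower, and 5 of 11 neuropeptide and receptor genes were higher.

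Some genes had a lower level at 6 days than at 1 day. Timp1 had 8.48 ± 0.21 at 6 days and 9.80 ± 0.24 at 1 day, a difference of -1.31 ± 0.18 (adjusted p = 1.21e-05). Socs3 had 9.18 ± 0.13 at 6 days and 10.06 ± 0.21 at 1 day, and fell by 0.88 (SE 0.18, adjusted p = 0.00519). Msh6, a DNA mismatch repair gene, had 9.70 ± 0.10 at 6 days and 10.89 ± 0.28 at 1 day, and fell by 1.19 (SE 0.14, adjusted p = 5.68e-07). Calb2 had 8.06 ± 0.10 at 6 days and 9.12 ± 0.24 at 1 day, and fell by 1.06 (SE 0.16, adjusted p = 0.000117). Shh had 8.45 ± 0.15 at 6 days and 9.37 ± 0.18 at 1 day, and fell by 0.92 (SE 0.21, adjusted p = 0.0157). Abra, an actin-binding signalling gene of muscle, was not detected on any of the 3 arrays at 6 days and was detected on all 3 at 1 day, at least 1.21-fold lower at 6 days. The adjusted p of its fitted difference, not of this bound, was 0.049.

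Calls of this interval that ended with an array left out were those of Abra without any of 6 (adjusted p up to 0.206), Shh without 1-day replicate 1 or 2 or 6-day replicate 1 or 3 (up to 0.108) and Socs3 without 1-day replicate 2 (0.0604). With median scaling the call of Shh ended (0.127), and the number of genes was 52. With the mean of its probes the call of Calb2 ended at -0.73 (0.0653). The call of Abra ended with neqc at -0.19 (0.494), median scaling (0.117), no background correction (0.0949), the authors' values (0.0945), no filter (0.0619), the mean of its probes (0.0551) and the running number as a block (0.0548). The count was 59 without 1-day replicate 1, 64 without 1-day replicate 2 and 60 without 6-day replicate 3.

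Between 6 days and its neighbours in time no gene passed, so no gene is given as particular to 6 days. Against 5 days the count was 0 by limma, with 357 genes at an unadjusted p under 0.05 (3.39%), and against 7 days it was 0, with 455 (4.33%). With only the arrays compared, Camp, a neutrophil granule gene, and Prg2, an eosinophil granule gene, differed between 6 and 5 days, by 1.40 (adjusted p = 0.0338) and 1.70 (adjusted p = 0.00329). With neqc Slc25a42, a mitochondrial carrier gene, did, at -0.21 (adjusted p = 0.0222). These 3 genes were chosen after their values were seen. Npy had 12.58 ± 0.29 at 5 days, 12.35 ± 0.13 at 6 days and 12.76 ± 0.33 at 7 days. Gpr151 had 11.59 ± 0.31, 11.34 ± 0.17 and 11.48 ± 0.22 on the same days, and Atf3 11.24 ± 0.45, 10.82 ± 0.10 and 10.93 ± 0.09. Vstm2b had 8.36 ± 0.18, 8.23 ± 0.08 and 8.14 ± 0.12. Calb2 had 8.58 ± 0.21 at 5 days, 8.06 ± 0.10 at 6 days and 7.92 ± 0.09 at 7 days, a difference of -0.52 ± 0.16 between 6 and 5 days (adjusted p = 1) and of 0.15 ± 0.16 between 6 and 7 days (adjusted p = 0.938).

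**Figure D5:**
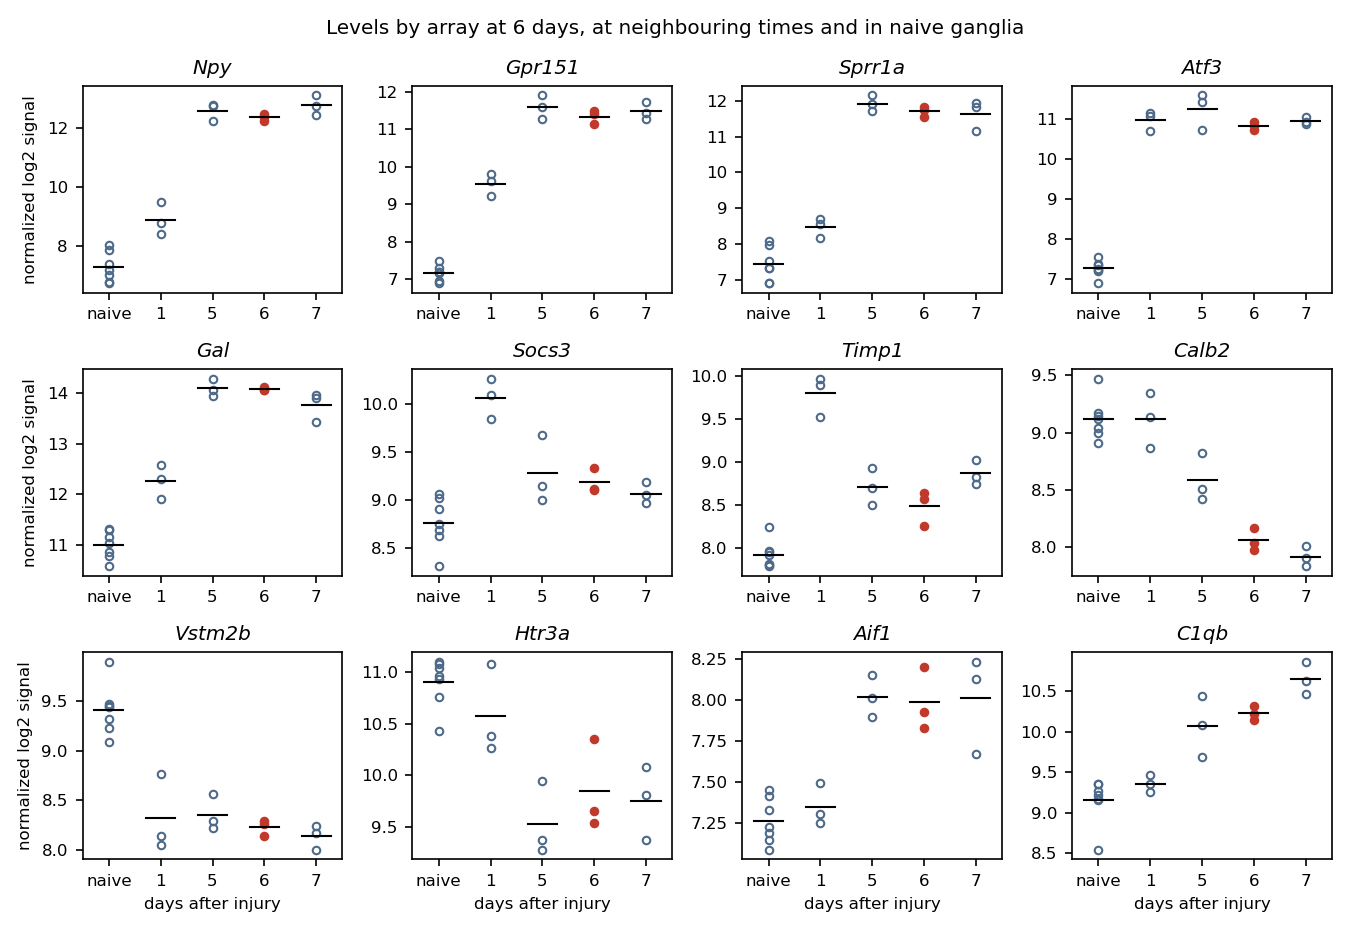
Normalized log2 signal of 12 genes on each array in naive ganglia and at 1, 5, 6 and 7 days after injury, with the 6-day arrays in red and bars for the group means. Npy, Gpr151, Sprr1a and Gal lie higher at 6 days than at 1 day, and Socs3 and Timp1 lie lower. The 6-day arrays of Calb2 lie below those at 5 days. Against the 7-day arrays, those of Gal at 6 days lie higher and those of Timp1 and C1qb lower. None of these differences from 5 or 7 days passed the threshold.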

How the data were processed

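Ganglion RNA was labelled as biotinylated cRNA with an Ambion kit, per the labels' protocols, and hybridised to Illumina bead arrays. The authors deposited a table of probe intensity values with a detection p-value column for each array, and a table of processed log2 values, whose scaling matched a quantile normalization of the intensities to within 0.038. The deposited p-value columns followed the signal of their own array on 3 of 40 arrays and not on 37. In the main analysis they were therefore used only to set the detection level, from those 3 arrays. This replaces filtering by each array's own column. The neqc alternative took in the columns of all 40 arrays, so its values rest mostly on columns that do not follow their array.

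The background of the intensities was removed by normexp with an offset of 50, after which arrays were quantile-normalized and put on the log2 scale. Probes above the level of 6.85 (6.82 to 6.88 on the 3 arrays) on at least 3 arrays were kept, 15462 of 25697, of which 23978 carried 1 gene symbol and 1719 none. A gene took its kept probe with the highest mean, which mattered for 2819 of 10519 genes. limma 3.58.1 in R 4.3.3 fitted a mean for each of 13 groups over 40 arrays, with eBayes trend and Benjamini-Hochberg adjustment over all genes and a threshold of 0.05. The code was tested on simulated data. A gene not above the level on any array of a group has only a bound there, computed against the higher of the level and the gene's own signal on each array.

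Named genes were the 15 largest differences in each direction past the threshold with all 3 arrays on that side of the naive mean, the 5 largest in each direction for other times, and list members with the largest differences and known roles. Motif shares and single promoters cover the genes in the RefSeq promoter table used. Promoters of chromosome 18 were not looked at singly, and the shares were counted without that exclusion. The comparison, the members and the lists were chosen with earlier results of these data known. The deviations of 6-day and naive arrays of the same replicate number correlated at -0.26, -0.29 and 0.04. Pairs of unlike number were not set beside them, so whether the number marks pairs was not settled. That check does not cover the running number of the labels. With blocks of 26 running numbers, 468 genes passed against naive (263 higher, 205 lower). Naive replicate 7 stood alone in its block there. Alternatives were other background corrections and scalings, the authors' values, no filter, the mean of probes, robust variances with array weights, only the arrays compared, blocks, a muscle covariate and leaving out each array.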

Additional observations from a re-analysis of the deposited data

Results flagged for a closer look

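On 14 of 148 named genes looked at, 1 of the 7 naive arrays stood apart from the others by Dixon's ratio, which chance gives in about 1 in 20 groups. Naive replicate 4 was apart for Cstdc4 (6.81), Galm (7.31), Htr3b (10.02), Rims2 (8.96), C1qb (8.54), S100a9 (11.52) and S100a8 (12.94). Naive replicate 2 was apart for Gng8 (10.38), Timp1 (8.24), Gfra3 (9.93) and Vamp1 (11.29). Naive replicate 6 was apart for P2rx6 (8.11) and for the muscle genes Atp2a1 (11.35) and Acta1 (11.29).

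Levels at 6 days and at 1 day differed past the threshold for named genes. They were higher at 6 days for Npy (3.46), Sprr1a (3.23), Cckbr (2.29), Ecel1 (2.27), Nts (2.24) and Gal (1.81). They were lower for Timp1 (-1.31), Msh6 (-1.19), Abra (-1.10), Calb2 (-1.06), Shh (-0.92) and Socs3 (-0.88), where the value of Abra is a fitted difference and not a bound.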

How the results depend on the processing

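Of 111 named values past the threshold, 76 stayed past it whichever single array was left out and 69 under every alternative run. The 547 genes that differed between 6 days and naive became 253 with median scaling (174 higher, 79 lower), 1377 (616 higher, 761 lower) once variances were robust and arrays weighted, and 299 to 604 with 1 array left out, the lowest without 6-day replicate 3 and 303 without 6-day replicate 2. The 98 genes against 1 day became 52 with median scaling (45 higher, 7 lower), 180 with those robust variances, and 59 to 69 with 1 array left out, lowest without 1-day replicate 1. Against 5 days the 0 genes became 1 with neqc and 2 with only the arrays compared. The cause was not tested. With the replicate number as a block, 414 genes passed against naive (224 higher, 190 lower) and 82 against 1 day. What that number marks is not given in the labels. In this fit 18 of the named values lost their call. Against naive they were Klf6, Asns, Timp1, Plaur, Kcnc4, Cacna2d1, Asic1, Avpr1a, Tmem45b and Rims1. Also lost were Gng3, Pf4, Ccl12, Tgfb1, Cxcl16, Gldn and Ogn, and against 1 day Abra. Naive replicates 4 to 7 share their number with no other array, so against naive this fit used only naive replicates 1 to 3. Values near 0 changed sign: Scn10a ranged from -0.16 to 0.011 with an array left out, the highest without 6-day replicate 1. P2rx3 was -0.019 with the replicate block. Nefh was 0.035 with the replicate block, 0.030 with the muscle covariate, and -0.044 to 0.045 with an array left out, above 0 without naive replicate 4 or 5 or 6-day replicate 1 or 3. Small falls of dim genes are limited by the detection level.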
